A study of Mus musculus with 15 samples.

Results

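The genes described here encode the presynaptic vesicle release machinery, the proteins that load, dock, prime, fuse and recycle synaptic vesicles. They are 38 listed genes of synaptic vesicles, SNARE fusion, the active zone and vesicle endocytosis, out of a table of 54736 genes. TPM is the level of a gene per transcript length, scaled to a fixed total per library. All 38 averaged at least 1 TPM over the 15 libraries, as did 18656 genes of the table. The list follows function, but it was drawn up with earlier results of these data known. Each library is bulk RNA from a micropunch of the medial prefrontal cortex, and the mice were C57BL/6 males 8 to 10 weeks old. The 8 libraries titled KO are taken as Df(h15q13)/+ mice, which carry a heterozygous deletion of the mouse segment that corresponds to the human 15q13.3 microdeletion in every cell, and the 7 titled WT as their wild-type littermates. The series' design text gives these numbers the other way round, with 7 deletion and 8 wild-type mice, and the titles were used.

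A nerve terminal releases transmitter when calcium enters beside docked vesicles. Vamp2 on the vesicle and Stx1a and Snap25 on the plasma membrane zip into a SNARE complex, Syt1 senses the calcium, and complexins clamp and assist the fusion. Rim, Munc13, Bassoon, Piccolo, ELKS and liprin proteins build the active zone, the site on the membrane where this happens. Afterwards Nsf and the SNAP proteins take the complexes apart, and dynamin, amphiphysin, synaptojanin and endophilin retrieve the membrane. Cortical pyramidal cells and interneurons use the same machinery with different paralogues in different amounts.

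The deleted genes served as a check of the titles. The 5 of them that averaged at least 1 TPM stood at 38.7% to 48.4% of the WT mean, and for all 5 the KO and WT libraries did not overlap. All 12 excitatory and all 12 inhibitory neuron markers of the lists used here averaged at least 1 TPM. So did 7 of 8 striatal neuron markers, so passing that level does not by itself mark cortex. Of 6 choroid plexus and ependymal markers 4 were below that level. Mitochondrially encoded transcripts made up 18.8% to 26.0% of each library. How many reads stand behind a value cannot be recovered from TPM, and no counting error is printed. Nothing in the labels says which animal a library came from, so p-values rest on the spread between libraries, part of which may be technical. KO 1 and KO 8 stood apart in myelin genes, with summed TPM over 10 oligodendrocyte markers of 987 and 1448. That sum ran from 429 to 586 in WT and from 293 to 437 in the 6 remaining KO libraries.

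Promoters of 4 members are shown because these genes belong to pairs that varied together across libraries, described further on: Cplx1 with Vamp1, and Syn1 with Syp. Each line gives the 250 bases before the annotated start, 5′ to 3′ on the gene's strand, from RefSeq on GRCm38.p6, the assembly behind mm10. Gene coordinates given further on come from GENCODE, whose starts can differ. The Vamp1, Syn1 and Syp windows reach into the genes as GENCODE places them. Capitals mark matches, on either strand, to TTCAGCACC (the left part of RE1, the site of the neuronal gene repressor REST), to TGACGTCA (the cAMP response element, CRE) or to GGGCGG (the GC box). The letters of the RE1 part were chosen after the Syn1 window had been read.
Cplx1 (chr5:108550028-108550277, minus strand): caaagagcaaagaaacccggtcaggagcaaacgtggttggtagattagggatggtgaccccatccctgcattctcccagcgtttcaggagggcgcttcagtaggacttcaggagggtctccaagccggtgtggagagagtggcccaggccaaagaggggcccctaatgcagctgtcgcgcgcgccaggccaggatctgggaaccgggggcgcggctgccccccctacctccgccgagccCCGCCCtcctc
Vamp1 (chr6:125215331-125215580, plus strand): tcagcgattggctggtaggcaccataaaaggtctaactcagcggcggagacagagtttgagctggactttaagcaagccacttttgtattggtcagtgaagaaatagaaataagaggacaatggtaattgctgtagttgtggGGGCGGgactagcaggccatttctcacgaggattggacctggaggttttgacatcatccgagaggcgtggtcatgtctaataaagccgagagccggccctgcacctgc
Syn1 (chrX:20920919-20921168, minus strand): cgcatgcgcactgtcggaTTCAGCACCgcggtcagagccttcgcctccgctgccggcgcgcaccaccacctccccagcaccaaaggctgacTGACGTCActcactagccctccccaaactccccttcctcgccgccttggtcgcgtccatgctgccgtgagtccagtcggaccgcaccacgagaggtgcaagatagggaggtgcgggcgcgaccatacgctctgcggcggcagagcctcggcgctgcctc
Syp (chrX:7638330-7638579, plus strand): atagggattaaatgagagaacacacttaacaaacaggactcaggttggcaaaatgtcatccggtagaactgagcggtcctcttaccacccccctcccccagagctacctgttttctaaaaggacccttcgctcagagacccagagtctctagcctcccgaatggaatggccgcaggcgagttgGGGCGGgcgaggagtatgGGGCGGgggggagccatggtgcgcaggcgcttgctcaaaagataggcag
The Syn1 window held an RE1 part and a CRE, the Syp window 2 GC boxes, and the Cplx1 and Vamp1 windows 1 GC box each. Among the 32 members matched in the promoter table, the RE1 part was found for Syn1 and Ppfia3 and the CRE for Syn1 and Sh3gl2, against 0.301% and 1.55% of all 32851 windows of this length. A GC box was found for 23 of the 32 members, against 32.7% of all windows, and the letters TATAAA for 1 of them, Sv2b, against 12.4%. A member counts when any of its windows matched, and 6 members have more than 1 window. The matches are descriptions of these windows. Syn3, Doc2a, Doc2b, Snap25, Vamp2 and Rims2 were not matched.

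In WT cortex the members spanned levels from Snap25, at 2713 ± 297 TPM (SD, n = 7), to Sv2c, at 5.85 ± 0.448 TPM. Vamp2 followed Snap25 at 1308 ± 75.8 TPM, then Syt1 at 903 ± 88.4, Dnm1 at 870 ± 71.2 and Syp at 831 ± 77.9 TPM. The WT ranges of these last 3 overlapped, though Syp was the lowest of the 3 in each WT library. Differences between genes were not tested. Below 20 TPM lay Erc1 at 17.8 ± 3.65, Rims3 at 16.5 ± 2.40, Doc2b at 8.79 ± 1.505, Syn3 at 8.66 ± 1.04 and Sv2c. Levels per transcript length can be set beside each other. Together the 38 genes took between 1.11% and 1.32% of the TPM of a WT library. In KO libraries they took between 1.11% and 1.44%, and only KO 8 lay above every WT library.

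No member passed the test between KO and WT. Log2(TPM + 1) was compared with limma over all 18656 genes, and after Benjamini-Hochberg adjustment 0 of 38 members were under 0.05, with adjusted p-values from 0.388 to 0.974. Over all genes 0.0268% passed, which were the 5 deleted genes. At an unadjusted limma p under 0.05, 2 members were higher in KO and 0 were lower, against 5.68% and 6.21% of all genes. Their median log2 fold change was -0.01 and 20 of 38 had a value below 0, beside a median of 0.02 and 45.3% of all genes. For 0 members did the KO and WT ranges of TPM separate, against 0.134% of all genes. In bulk tissue, fewer cells of a type and less RNA per cell cannot be told apart.

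**Figure D1:**
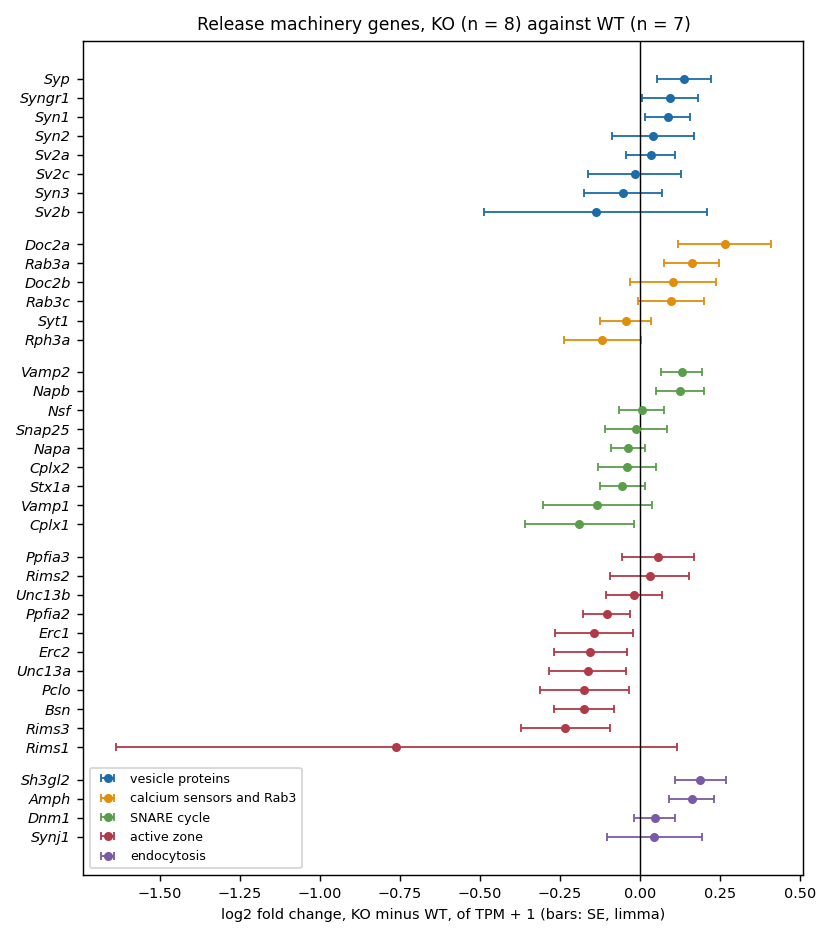
Log2 fold change of TPM + 1, KO (n = 8) minus WT (n = 7), for the 38 genes, with limma SE as bars and colour by role. Active zone genes lie mostly left of 0 (9 of 11), all 4 endocytosis genes lie right of it, and Rims1 has by far the widest bar.

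The 4 endocytosis genes all had higher means in KO, with a median log2 fold change of 0.10, and they included both members with an unadjusted p under 0.05. Sh3gl2 encodes endophilin A1, which bends membrane and recruits synaptojanin to budding vesicles (ENSMUSG00000028488, chr4:85205126-85639195, mm10). Its lowest, median and highest values were 225.8, 246 and 292 TPM in WT and 243, 299 and 347 TPM in KO. The groups overlapped, with KO 1 to KO 5 above every WT library and KO 6, KO 7 and KO 8 inside the WT range. KO minus WT was 0.19 ± 0.08 on the log2 scale (SE; limma adjusted p = 0.388). Amph encodes amphiphysin, which links dynamin to clathrin-coated pits (ENSMUSG00000021314, chr13:18948205-19150921). It ran from 97.3 through 109 to 134 TPM in WT and from 112 through 124 to 139 TPM in KO. All 8 KO libraries lay above the WT mean of 111 TPM, but WT 4 lay above 6 of them. The log2 fold change was 0.16 ± 0.07 (SE; limma adjusted p = 0.390). Dnm1, the dynamin that pinches vesicles off, was at 0.05 ± 0.06, and Synj1, the phosphatase that helps shed the clathrin coat, was at 0.05 ± 0.15. Neither sign was stable: Synj1 was at -0.02 without KO 1 and Dnm1 at -0.03 with quantile normalization. The number of members higher at an unadjusted p under 0.05 ranged from 0, without WT 2, KO 1 or KO 3, to 6, without KO 6. It was 1 without WT 1, WT 5, WT 7 or KO 4, and 5 without WT 4, 4 without KO 5 and 3 without WT 6, KO 7 or KO 8. Over all genes the same count moved too, from 632 of 18641 without WT 5 to 1506 of 18644 without KO 6.

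**Figure D2:**
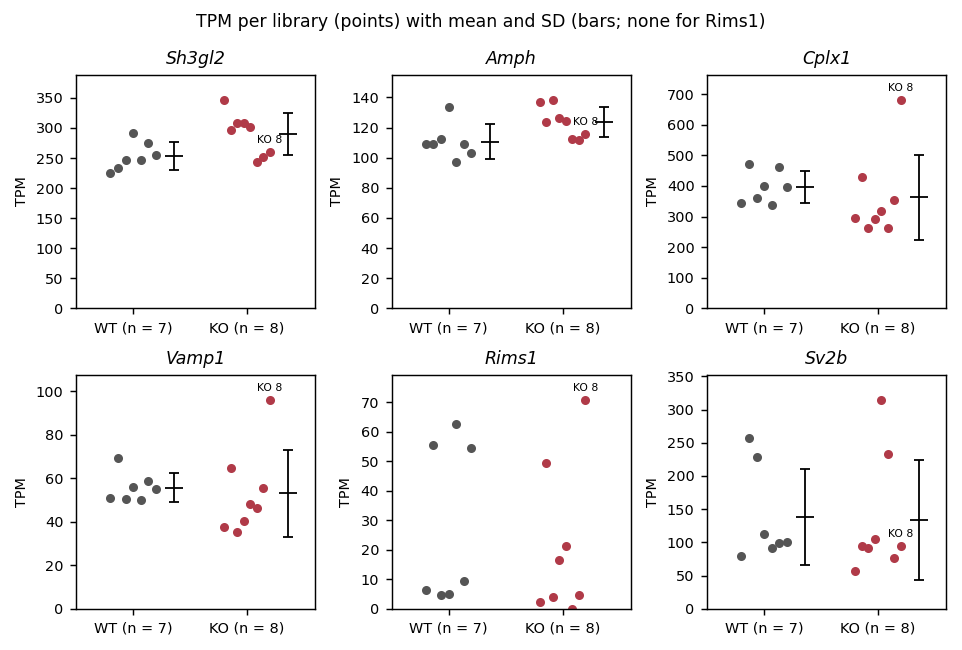
TPM in each library for 6 genes, WT in grey and KO in red, with mean and SD as bars except for Rims1, which is listed at 0 in 1 library. Sh3gl2 and Amph overlap between the groups, KO 8 is the highest library for Cplx1 and Vamp1, and Rims1 and Sv2b spread widely within both groups.

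Active zone genes went mostly the other way. Of 11 genes 9 had lower means in KO, with a median log2 fold change of -0.15, and 0 passed the test or reached an unadjusted p under 0.05. Bsn encodes Bassoon, one of the giant scaffolds of the active zone (ENSMUSG00000032589, chr9:108096022-108190384), and had the lowest p of this group. It ran from 90.6 through 106 to 118 TPM in WT and from 68.5 through 95.3 to 111 TPM in KO. The groups overlapped, and 2 KO libraries, KO 1 and KO 7, lay below every WT library. The log2 fold change was -0.17 ± 0.09 (SE; limma adjusted p = 0.460). Its giant partner Piccolo, encoded by Pclo, was also at -0.17 ± 0.14. The priming factor gene Unc13a, which encodes Munc13-1, was at -0.16 ± 0.12, while Unc13b, for Munc13-2, was at -0.02 ± 0.09. The ELKS scaffold genes Erc1 and Erc2 were at -0.14 ± 0.12 and -0.15 ± 0.11. Rims3, a short member of the Rim family, was at -0.23 ± 0.14 and Rims2, which encodes a full-length Rim, at 0.03 ± 0.12. The liprin genes Ppfia2 and Ppfia3 were at -0.10 ± 0.07 and 0.06 ± 0.11. Unc13b and Rims2 changed sign with array weights, and Unc13b also after the length and GC correction described next. KO 1 stood lowest: over the 11 genes its median deviation from the WT mean was -0.57 on the log2 scale, and without KO 1 the group's median was -0.08 with 8 of 11 lower. Without KO 1 and KO 8 it was -0.09 with 9 of 11 lower.

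**Figure D3:**
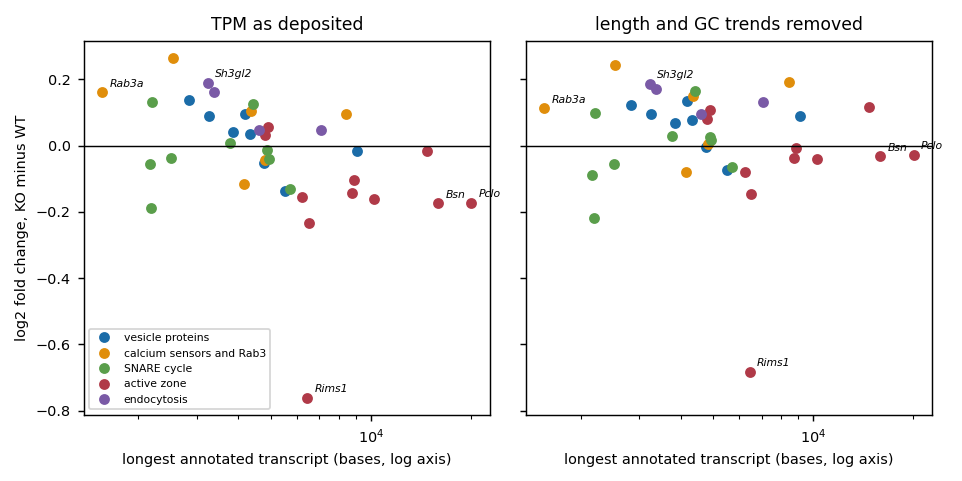
Log2 fold change, KO minus WT, against the length of the longest annotated transcript in bases (log axis) for the 38 genes, coloured by role, from TPM as deposited (left) and after trends on length and GC content were removed within each library (right). The genes with the longest transcripts, Bsn and Pclo, are at -0.17 on the left and -0.03 on the right.

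Fold change and transcript length moved together, and active zone transcripts are long. Among the 19 members longer than the members' median of 4787.5 bases, 15 were lower in KO, with a median log2 fold change of -0.10. Of the 19 shorter members 14 were higher, with a median of 0.09. The same order held over all tested genes: of 3613 that are longer, 2582 were lower (median -0.07), and of 15024 at or under that length, 9174 were higher (median 0.04). Spearman's rho between length and log2 fold change was -0.54 across the 38 members and -0.30 across 18637 tested genes with a known length. These are descriptions across genes, which share libraries and are not replicates. After trends on length and GC content were removed within each library, the median of the active zone genes was -0.03 with 8 of 11 lower, Bsn and Pclo were both at -0.03, Unc13a was at -0.04, and Unc13b turned to 0.12. Sh3gl2 and Amph kept values of 0.19 and 0.17. The median of all members was then 0.05, with 23 of 38 higher and 15 lower beside 45.1% of all genes lower. Of the higher members 3 (Sh3gl2, Amph and Napb) had an unadjusted limma p under 0.05 against 6.35% of all genes, and 0 members were lower at that level against 5.98%. As before, 0 passed the adjusted threshold, against 0.0268% of all genes. The files give no RNA integrity value, and its part in this was not tested.

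Genes of the vesicle's own membrane and surface were mixed. Of 8 genes 5 had higher means in KO and 3 lower, beside 45.3% of all genes lower, with a median log2 fold change of 0.04, and 0 passed the test. Quantile normalization and leaving out KO 3 each gave 4 of 8 higher, with medians of 0.0013 and 0.0047. Syp encodes synaptophysin, a major protein of the vesicle membrane (ENSMUSG00000031144, chrX:7638471-7653256), and had the lowest p of the 8. It ran from 726 through 840.0 to 947 TPM in WT and from 769.8 through 915 to 1152 TPM in KO. The groups overlapped, with KO 1, KO 2 and KO 3 above every WT library. KO minus WT was 0.14 ± 0.08 on the log2 scale (SE; limma adjusted p = 0.498), and 0.09 without KO 1. The synapsin genes Syn1 and Syn2, whose proteins tether vesicles in the reserve pool, were at 0.09 ± 0.07 and 0.04 ± 0.13, and Syn3 was at -0.05 ± 0.12. Syngr1, for the tetraspan protein synaptogyrin 1, was at 0.09 ± 0.09. Of the genes of the vesicle glycoprotein SV2, Sv2a was at 0.03 ± 0.08, Sv2c at -0.02 ± 0.14 and Sv2b at -0.14 ± 0.35. The values of Syn2, Syn3, Sv2a, Sv2b and Sv2c lay within 0.15 of 0 and changed sign under at least 1 alternative setting or with 1 library left out.

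Among calcium sensors and Rab3 proteins, Rab3a and Doc2a had the largest values and 4 of 6 genes were higher. Rab3a encodes the small GTPase that marks mature vesicles for docking (ENSMUSG00000031840, chr8:70754679-70758677). It ran from 267 through 311 to 351 TPM in WT and from 294 through 345 to 442 TPM in KO, with 3 KO libraries above every WT library and KO 1 the highest. The difference was 0.16 ± 0.09 on the log2 scale (SE; limma adjusted p = 0.456). Doc2a, for a high-affinity calcium sensor of spontaneous and asynchronous release, was at 0.26 ± 0.14 (SE; limma adjusted p = 0.462), Doc2b at 0.10 ± 0.14 and Rab3c at 0.10 ± 0.10. With 1 library left out, Doc2b ranged from 0.04 (without WT 1) to 0.17 (without KO 7) and Rab3c from 0.05 (without KO 4) to 0.15 (without KO 7). Syt1, the fast calcium sensor, was at -0.04 ± 0.08, with WT and KO means of 903 and 877 TPM. After the length and GC correction Syt1 was at 0.0039. Rph3a, for the Rab3 effector rabphilin, was at -0.12 ± 0.12.

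The core SNARE genes stayed within a narrow range, and 6 of 9 genes of the SNARE cycle had lower means. Vamp2, for the main vesicle SNARE of forebrain synapses (ENSMUSG00000020894, chr11:69088490-69092384), had the lowest p of the 9. It ran from 1191 through 1325 to 1399.7 TPM in WT and from 1247 through 1452 to 1617 TPM in KO, with 5 KO libraries above every WT library and the other 3 inside the WT range. The difference was 0.13 ± 0.06 on the log2 scale (SE; limma adjusted p = 0.438). Snap25 was at -0.01 ± 0.10, from 2713 ± 297 TPM in WT (SD, n = 7) to 2705 ± 414 TPM in KO (SD, n = 8). Stx1a was at -0.06 ± 0.07. Of the genes that take SNARE complexes apart, the ATPase gene Nsf was at 0.01 ± 0.07, Napa, for α-SNAP, at -0.04 ± 0.05 and Napb, for β-SNAP, at 0.13 ± 0.07. Cplx2, for complexin 2, was at -0.04 ± 0.09. Snap25, Nsf and Cplx2 changed sign with the setting or with single libraries left out. Cplx1 was at -0.19 ± 0.17 and Vamp1 at -0.13 ± 0.17. The last 2 had wide errors for their level, and their values by library are given next.

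Cplx1, Vamp1 and Rph3a were low in most KO libraries and highest of all libraries in KO 8. These genes and Unc13a were singled out after their values had been seen. Cplx1, for complexin 1 (ENSMUSG00000033615, chr5:108518554-108550024), ran from 339 through 396 to 471 TPM in WT. In KO it ran from 262 to 428 TPM in 7 libraries and was 682 TPM in KO 8. Vamp1, the vesicle SNARE of fast-spiking and brainstem neurons (ENSMUSG00000030337, chr6:125215551-125245964), ran from 49.96 through 55.0 to 69.4 TPM in WT, from 35.5 to 64.8 TPM in 7 KO libraries, and was 96.0 TPM in KO 8. Rph3a ran from 244 through 268 to 337 TPM in WT, from 212 to 273 TPM in 7 KO libraries, and was 416 TPM in KO 8. KO 1, KO 3, KO 4, KO 5 and KO 6 lay below every WT library for Cplx1 and Vamp1, and KO 1, KO 3, KO 4, KO 6 and KO 7 for Rph3a, while KO 8 lay above every WT library for all 3. KO 8 is also the library with the highest summed oligodendrocyte markers, at 1448 TPM. KO 1, the next at 987 TPM, had 296 TPM of Cplx1 and 37.6 TPM of Vamp1. The part of tissue makeup in the KO 8 values was not tested.

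Without KO 8, 21 of 38 members had a log2 fold change below 0, beside 43.7% of all genes. At an unadjusted limma p under 0.05, 5 members were lower in KO, against 7.06% of all genes, and 3 were higher, against 8% of all genes. Again 0 passed the adjusted threshold, and 0.0322% of all genes did. The 5 were Cplx1 at -0.33 ± 0.11 (SE; limma adjusted p = 0.235, the lowest of the 5), Rph3a at -0.22 ± 0.08, Unc13a at -0.24 ± 0.10, Bsn at -0.21 ± 0.09 and Vamp1 at -0.26 ± 0.12. The 3 higher members were Sh3gl2 at 0.21 ± 0.08, Amph at 0.18 ± 0.07 and Doc2a at 0.31 ± 0.15. KO 8 held the highest values of Cplx1, Rph3a, Unc13a and Vamp1, so leaving it out lowers their KO means and adds no separate support. With both KO 1 and KO 8 left out, 2 members were lower at that level, against 1037 of 18657 genes. These were Cplx1 at -0.32 and Rph3a at -0.22, and 2 members were higher, against 987 genes. Leaving out WT 3 or KO 2 gave 1 lower member each, against 1404 and 1094 of 18666 genes. The other 12 fits without 1 library gave 0.

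Cplx1 and Vamp1 varied together across the libraries within both groups. Correlations were taken over 15 libraries from the deviations of log2(TPM + 1) from each group's mean, for 780 gene pairs among the members, Syt2 and Pvalb. The p-values come from 100000 permutations of libraries within groups, adjusted over the 780. Syt2 and Pvalb are not members, and the adjustment does not cover their choice from longer lists. Correlations with the other inhibitory neuron markers were not computed. For Cplx1 and Vamp1 Pearson's r was 0.95 (permutation p = 1e-05, the smallest that these permutations can give, adjusted 0.0026) and Spearman's rho 0.94 (permutation p = 2e-05, adjusted 0.0078). Without KO 8 and KO 3, the libraries farthest from the median of Vamp1, r was 0.85, and within WT alone it was 0.91. Rph3a followed Cplx1 with r = 0.89 (permutation p = 0.00076, adjusted 0.0196) and rho = 0.77 (permutation p = 0.00182, adjusted 0.049), and r was 0.66 without KO 8 and WT 6. For Rph3a and Cplx1 r was 0.52 within WT alone and 0.97 within KO alone. Syt2, for the fast calcium sensor of parvalbumin interneuron terminals, followed Vamp1 with r = 0.95 (permutation p = 1e-05, adjusted 0.0026) and rho = 0.91 (permutation p = 4e-05, adjusted 0.0104), and r = 0.90 without KO 8 and KO 3 and 0.63 within WT alone. Pvalb, which encodes parvalbumin itself, followed Vamp1 with r = 0.91 (permutation p = 0.00011, adjusted 0.00715) and rho = 0.82 (permutation p = 0.00121, adjusted 0.0472), and r = 0.79 without the same libraries. Within WT alone r for Pvalb and Vamp1 was 0.54.

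Syt2 and Pvalb were also highest in KO 8. Syt2 ran from 5.68 through 9.20 to 11.6 TPM in WT, from 2.07 to 8.61 TPM in 7 KO libraries, and was 14.7 TPM in KO 8. KO minus WT was -0.76 ± 0.30 on the log2 scale (SE; limma adjusted p = 0.377) and -0.98 without KO 8 (adjusted p = 0.156). Pvalb ran from 27.2 through 39.9 to 52.2 TPM in WT, from 16.7 to 46.1 TPM in 7 KO libraries, and was 70.5 TPM in KO 8. The difference was -0.44 ± 0.25 (SE; limma adjusted p = 0.484) and -0.62 without KO 8 (adjusted p = 0.222). Of the 12 inhibitory neuron markers 10 had lower means in KO, beside 45.3% of all genes, 4 with an unadjusted p below 0.05, beside 6.21%, and 0 passed after adjustment (limma). At the same p, 8 of 12 astrocyte and 8 of 10 endothelial markers were lower, and 0 passed. Summed TPM over the 12 inhibitory neuron markers ran from 954 to 1079 in WT. In KO it ran from 871 to 1004 apart from KO 1 at 1080.1 and KO 8 at 1173. The part of these cells in the values of Cplx1 and Vamp1 was not tested. After the length and GC correction, with all libraries, Cplx1 was at -0.22 and Vamp1 at -0.07.

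**Figure D4:**
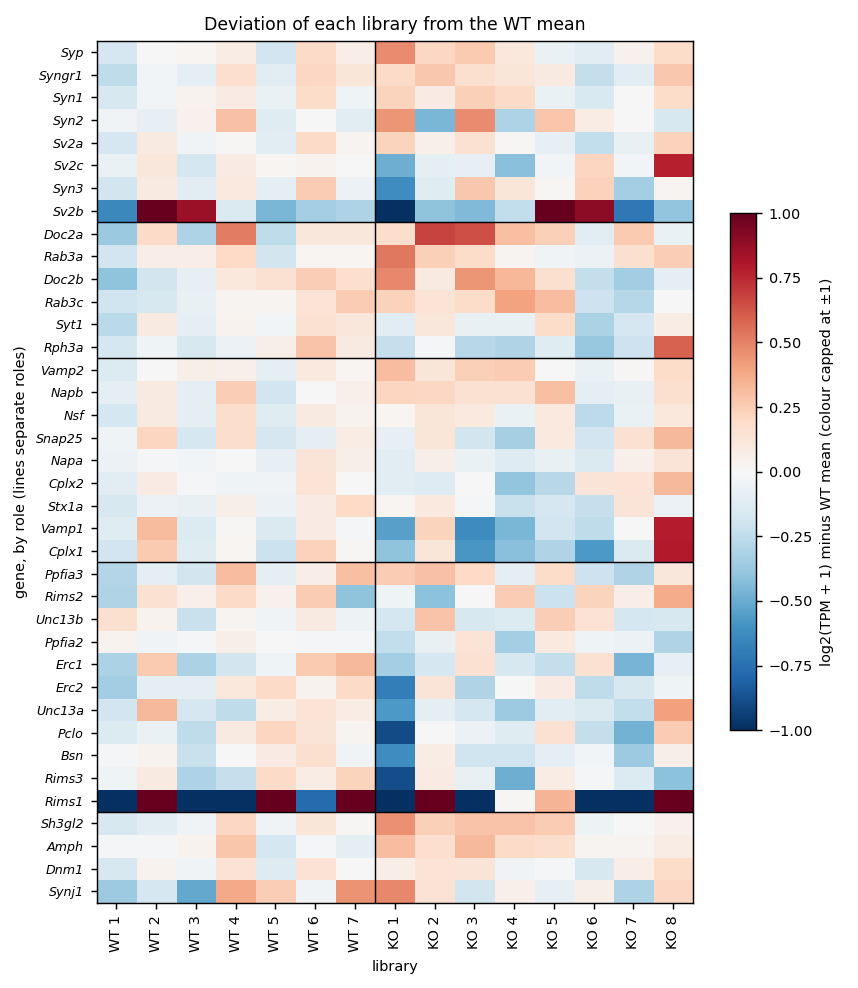
Log2(TPM + 1) of each library minus the WT mean, for the 38 genes (rows, ordered by role) and 15 libraries (columns), with colour capped at 1 in either direction. Cplx1 and Vamp1 share their pattern and are highest in KO 8, most active zone genes are low in KO 1, and Rims1 and Sv2b vary widely within both groups.

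Other pairs of members also correlated across libraries, and those given here were chosen after their values were seen. Syn1 and Vamp2 correlated at r = 0.95 (permutation p = 1e-05, adjusted 0.0026; rho = 0.94, permutation p = 1e-05, adjusted 0.0078), and at r = 0.94 without KO 6 and WT 6. Syp correlated with Rab3a at r = 0.88 (permutation p = 0.00015, adjusted 0.00829; rho = 0.80, permutation p = 0.00133, adjusted 0.0474), and at r = 0.77 without KO 1 and KO 6. Syn1 and Syp, the genes of the promoters shown above, correlated at r = 0.85 (permutation p = 0.0002, adjusted 0.00858; rho = 0.85, permutation p = 0.00034, adjusted 0.0295), and at r = 0.79 without KO 6 and WT 6. Syp and Vamp2 correlated at r = 0.89 (permutation p = 5e-05, adjusted 0.00715), while by rank the pair missed the threshold (rho = 0.78, permutation p = 0.00247, adjusted 0.0584), and r was 0.82 without KO 1 and KO 6. Bsn and Pclo, active zone genes with long transcripts, did so at r = 0.87 (permutation p = 0.00043, adjusted 0.0134), and at r = 0.77 without KO 1 and KO 2. By rank Bsn and Pclo had rho = 0.76 (permutation p = 0.00292, adjusted 0.0584). Among the 703 pairs of members 45 had an adjusted permutation p under 0.05 and all 45 were positive. The median r of the 703 was 0.22, and 502 had r above 0. The share among pairs of all tested genes was not computed, so these counts are not particular to the members. The most negative pair was Vamp2 and Rims3, at r = -0.63 (permutation p = 0.0243, adjusted 0.164; rho = -0.68, permutation p = 0.0157, adjusted 0.136), and r was -0.46 without KO 1 and KO 6. Values of 1 library share its total, its tissue and its RNA.

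Rims1 and Sv2b varied most between libraries of the same group. Rims1, for the scaffold RIM1 (ENSMUSG00000041670, chr1:22286251-22805994), was listed at 55.6, 62.5 and 54.4 TPM in WT 2, WT 5 and WT 7 and at 4.60 to 9.30 TPM in the other 4 WT libraries. In KO it was listed at 49.5 TPM in KO 2, 70.7 TPM in KO 8, 21.2 TPM in KO 5 and 16.7 TPM in KO 4, at 2.36 to 4.77 TPM in KO 1, KO 3 and KO 7, and at 0 in KO 6. KO minus WT of -0.76 ± 0.88 on the log2 scale (SE; limma adjusted p = 0.716) ranged from -1.16 to -0.28 with 1 library left out. Sv2b (ENSMUSG00000053025, chr7:75114894-75309262) was at 257 and 229 TPM in WT 2 and WT 3 and at 315 and 234 TPM in KO 5 and KO 6, while the other 11 libraries lay between 57.2 and 113 TPM. Both genes thus differed several-fold between libraries of the same genotype. The coefficient of variation of Sv2b was 52.3% in WT and 67.8% in KO. Over the 36 members other than these it reached at most 25.4% in WT, for Synj1, and 38.6% in KO, for Cplx1, and its median over all 38 was 10.7% in WT. A listed 0 or a low value in a table of estimated transcript abundances can be a failed estimate, and its part here was not tested.

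Paralogue ratios were compared because a ratio of TPM within a library does not depend on the library's total, apart from the 1 added to each value. For 12 pairs, the difference between group means of log2((TPM + 1)/(TPM + 1)) was tested by an exact two-sided permutation of the genotype labels (6435 assignments) and adjusted over the 12 pairs, and 0 pairs passed or reached an unadjusted p under 0.05. The ratio of Napa to Napb had the lowest p: it was -0.47 ± 0.13 in WT (SD, n = 7) and -0.63 ± 0.17 in KO (SD, n = 8), a difference of -0.16 ± 0.08 (SE; exact permutation p = 0.0603, adjusted 0.724). Vamp1 to Vamp2 was at -4.53 ± 0.16 in WT and -4.80 ± 0.52 in KO, a difference of -0.26 ± 0.19 (SE; exact permutation p = 0.216, adjusted 0.729). Without KO 8 the difference was -0.39 for Vamp1 to Vamp2 and -0.18 for Napa to Napb (each with exact permutation p = 0.0495, adjusted 0.198). Unc13a to Unc13b had -0.15 ± 0.14 and, without KO 8, -0.25 (exact permutation p = 0.0332, adjusted 0.198). KO 8 held the highest Vamp1 and Unc13a values of all libraries, so the p-values without it are descriptions only. Cplx1 to Cplx2 had -0.15 ± 0.15, Ppfia2 to Ppfia3 -0.16 ± 0.13, Doc2a to Doc2b 0.16 ± 0.16 and Rab3a to Rab3c 0.06 ± 0.13. Syn1 to Syn2 had 0.05 ± 0.14, Erc1 to Erc2 0.01 ± 0.15, and Bsn to Pclo -0.00078 ± 0.08. Among these ratios Syn1 to Syn2, Rab3a to Rab3c, Erc1 to Erc2, Bsn to Pclo and Sv2a to Sv2b changed sign under at least 1 alternative. Sv2a to Sv2b and Rims1 to Rims2, at 0.17 ± 0.41 and -0.79 ± 1.001, carry the wide spread of Sv2b and Rims1.

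Other genes of the release pathway were mixed too. Of 87 further listed genes 85 could be tested (Vamp7 was not matched and Unc13d was below 1 TPM), 47 were higher and 38 lower, with a median log2 fold change of 0.04, and 0 passed (limma, lowest adjusted p = 0.259). At an unadjusted p under 0.05, 5 were higher and 7 were lower, beside the 5.68% and 6.21% of all genes. Stx2, for a plasma membrane syntaxin, had the lowest p, with means of 21.1 ± 2.08 TPM in WT (SD, n = 7) and 27.0 ± 3.25 TPM in KO (SD, n = 8). Its log2 fold change was 0.34 ± 0.08 (SE; limma adjusted p = 0.259), with 7 of 8 KO libraries above the WT mean. Vamp4, for a SNARE of endosomes and of vesicle retrieval, was at 0.29 ± 0.11, and Bin1, an amphiphysin relative, at 0.17 ± 0.07. Lower were Ppfia1, a liprin, at -0.20 ± 0.07, Ston2, an endocytic adaptor for synaptotagmin, at -0.32 ± 0.12, and Vamp3 and Snap23, SNAREs common outside neurons, at -0.16 ± 0.07 and -0.29 ± 0.12. Slc6a17, a vesicular amino acid transporter, was at -0.25 ± 0.10 and below the WT mean in 8 of 8 KO libraries. In the same libraries all 10 endothelial markers and 10 of 12 astrocyte markers were lower, with summed TPM of 160.0 to 248.8 against 108 to 199 for endothelial and 1816 to 2424 against 1543 to 2068 for astrocyte markers in WT and KO, 0 of them at 0 in all libraries. Their part in the values of Vamp3 and Snap23 was not tested.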

How the data were processed

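The authors deposited TPM values per Ensembl gene ID, 1 column per library. The submitters' processing notes name StringTie, HISAT2, Trimmomatic and the mm10 build. For versions, annotation and strand setting the sources used here give nothing. Each column summed to between 999789 and 999899. Of 54838 rows 54723 had a GENCODE M21 symbol, and rows that share a symbol were summed. Another 2 unnamed columns were not used as sample values. TPM divides by length and library total, so a few abundant genes can shift all others. Genes that averaged at least 1 TPM were analysed as log2(TPM + 1), which understates changes of low genes, with limma 3.58.1 in R 4.3.3 (intensity trend, two-sided, Benjamini-Hochberg, threshold 0.05). The method was tested on simulated data. Lengths and GC content are those of the longest GENCODE transcript. The members and gene lists were chosen with earlier results of these data known. All members are named, with library values for members at an unadjusted p under 0.05 and the lowest p of each of 5 roles, and of other release genes the 10 with the lowest p below 0.05, of which 1 is not reported here. Cplx1, Vamp1, Rph3a, Unc13a, Rims1, Sv2b and Pvalb were described by library after their values were seen. Alternatives were pseudocounts, filters, scalings, weights, a robust prior, the replicate number as a block, and libraries left out. Marker lists of oligodendrocyte precursors (5 of 6 lower), microglia (7 of 8 lower) and striatal neurons (3 of 7 lower) were also read, with medians of -0.24, -0.12 and 0.12.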

Additional observations from a re-analysis of the deposited data

Results flagged for a closer look

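Each of the 38 genes was examined in both groups, 76 groups of values in all, for a library far from the others of its group (Dixon's 95% limit), and 7 groups had one. The limit is set so that about 1 in 20 independent groups would have one, but these groups share libraries. The share over all tested genes was not computed, so an excess among the members was not tested. In KO 8 there were 4: Cplx1 at 682 TPM against 262 to 428 in the other KO libraries, Rph3a at 416 TPM against 212 to 273, Unc13a at 160 TPM against 80.5 to 113, and Sv2c at 10.7 TPM against 3.87 to 6.93. In KO 1, Rab3a stood at 442 TPM against 294 to 363 in the other KO libraries. In WT 4, Syn2 stood at 409 TPM against 307 to 345 and Amph at 134 TPM against 97.3 to 113 in the other WT libraries. KO 1 and KO 8 are the libraries with the highest summed oligodendrocyte markers, at 987 and 1448 TPM.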

How the results depend on the processing

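As in the test of all libraries, 0 members and 0 other release genes passed under each of the 27 alternatives (lowest adjusted p of a member 0.183, with the replicate block). Of 38 members 25 kept the sign of their log2 fold change under all 27. The numbers 1 to 7 share only a number: correlations of deviations ran from -0.04 to 0.12, and 1 of 7 pairs was the best match for its own number. With the replicate block, which leaves KO 8 without a partner and so takes nothing from it, 8 genes in all passed in place of 5. In that fit 5 members were lower at an unadjusted limma p under 0.05, against 1440 of 18656 genes, and 2 were higher, against 1338. Nsf (-0.00736), Unc13b (0.00331), Rims2 (-0.0180) and the ratio of Bsn to Pclo (0.0275) changed sign. Median-of-ratios scaling and rescaling without mt- genes put 49.1% and 50.4% of all genes below 0 in place of 45.3%. The other sign changes follow, and their cause was not tested. Nsf was -0.0110 with median-of-ratios scaling, -0.0178 with quantile normalization, -0.0174 after rescaling without mt- genes, -0.000140 with array weights and -0.0114 without KO 1 and KO 8. With quantile normalization Sv2a was -0.00352 and Dnm1 -0.0298. With array weights Unc13b was 0.00791 and Rims2 -0.0192. With length and GC trends removed Sv2c was 0.0901, Syt1 0.00394, Snap25 0.0270, Cplx2 0.0167, Unc13b 0.115 and Rab3a to Rab3c -0.0804. Without KO 1 and KO 8, Syn3 was 0.0299, Sv2a -0.0313, Sv2b 0.0694, Unc13b 0.0337, Rims2 -0.0132, Synj1 -0.0534, Sv2a to Sv2b -0.101, Rab3a to Rab3c -0.00482 and Erc1 to Erc2 -0.0393. With pseudocounts of 0.1 and 0.5 Bsn to Pclo was 0.00146 and 0.000450. Leaving out 1 library at a time gave ranges of -0.0195 to 0.113 for Syn2, -0.0978 to 0.0300 for Syn3, -0.346 to 0.0346 for Sv2b, -0.130 to 0.0511 for Sv2c, -0.0601 to 0.0339 for Snap25, -0.0925 to 0.0102 for Cplx2 and -0.0225 to 0.0446 for Nsf. They were -0.0608 to 0.00898 for Unc13b, -0.0359 to 0.0939 for Rims2, -0.0393 to 0.121 for Synj1, -0.0252 to 0.101 for Syn1 to Syn2, -0.0402 to 0.0352 for Bsn to Pclo and -0.0526 to 0.0689 for Erc1 to Erc2. The median of the members ranged from -0.04 to 0.02 with 1 library left out and was 0.05 with length and GC trends removed. Between single WT libraries the members' median had an SD of 0.103, which is not the error of a difference between groups. TPM keeps no depth, so the counting error of low members such as Sv2c is unknown.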

Other observations

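Ppfia2, for liprin-α2, was the steadiest member in WT, from 35.3 to 37.8 TPM in 7 libraries, a coefficient of variation of 2.46%. In KO it ran from 28.4 to 39.99 TPM, with 6 libraries below and 2 above the whole WT range, and its log2 fold change was -0.10 ± 0.07 (SE; limma adjusted p = 0.547). Ppfia2 was singled out here after its values were seen, and a difference in spread was not tested.

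The authors' deposited table holds 1 number outside the columns of the libraries, 0.939, in the row of Syn1. It equals the WT mean of Syn1 divided by its KO mean, 0.939.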
